A study of Peromyscus californicus with 17 samples.

Results

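Mesothelin (Msln), uroplakin 3B (Upk3b), uroplakin 1B (Upk1b), the Wilms tumour factor Wt1 and the leucine-rich repeat protein Lrrn4 were followed as genes of the mesothelium in the lungs of male P. californicus, the monogamous California mouse. They were chosen by symbol as known mesothelial genes, and 4 of the 5 were measured, out of 27786 genes listed. Msln was not analysed here. Lung RNA was sequenced from 17 animals of stock IS, aged 12 to 15 months, with 1 library per animal. The 6 bonded males (B1 to B6) had lived with a mate for about 4 months. The 6 bond-disrupted males (BD1 to BD6) had been paired for as long, were then taken from the mate, and were sampled on day 7 of the separation. The 5 virgin males (V2 to V6) were of like age and lived in groups. Housing therefore differed together with bonding status, and the 2 cannot be told apart. The stock is genetically diverse, and animals with the same number are relatives.

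The mesothelium is the single sheet of flat cells that covers the lung as visceral pleura and lines the body cavities. Its cells make a slippery, microvillus-bearing surface, secrete lubricating glycoproteins, and keep both epithelial and mesenchymal traits. Wt1 is a zinc finger transcription factor that marks them from the embryo on. Upk3b and Upk1b are membrane proteins of the uroplakin family, named for the lining of the bladder. Lrrn4 is a membrane protein with leucine-rich repeats, and Msln is a surface glycoprotein tethered by a lipid anchor. In whole lung these cells are a small minority, and in such bulk samples fewer mesothelial cells and less RNA per cell cannot be told apart.

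Levels are given as FPKM, which scales the fragments of a gene to its length in kilobases and to the library in units of 1000000 fragments. In the deposited table, each animal's values had been divided by the length of another gene, a different one in each animal, so all levels below were recomputed with the gene's own length. The library depths behind the values, solved from the table in the same units, were 15.4 to 34.1 in bonded animals, 21.9 to 29.7 in bond-disrupted animals and 19.0 to 22.4 in virgins. The markers of lung cell types were present in every group. Summed FPKM over 6 type 2 alveolar markers ranged from 15200 to 33430, and over 5 endothelial markers from 480.2 to 876.1. The summed FPKM of the 4 mesothelial genes was 14.6 to 23.1 in bonded animals, 6.00 to 30.3 in bond-disrupted animals and 9.02 to 30.2 in virgins. All 4 were above 0 in all 17 libraries, so the genes of the label were present.

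Upk3b was the most abundant of the 4. Its level was 9.49 FPKM in the lowest bonded animal (B3), 14.8 at the median and 20.8 in the highest (B1). In bond-disrupted animals it was 3.20 FPKM in the lowest (BD4), 12.6 at the median and 21.1 in the highest (BD5). In virgins it was 14.8 FPKM in V2, 20.6 in V3, 7.67 in V4, 12.4 in V5 and 11.5 in V6. The group means were 14.9 ± 5.02 FPKM (SD, n = 6) in bonded, 12.5 ± 5.68 (n = 6) in bond-disrupted and 13.4 ± 4.77 (n = 5) in virgin animals. The 3 groups overlapped widely, and BD4 was the only animal under 7 FPKM. These levels rested on 185 to 972 fragments per animal.

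Lrrn4 came second. It was 1.19 FPKM in the lowest bonded animal (B2), 2.83 at the median and 3.84 in the highest (B6). In bond-disrupted animals it was 1.08 FPKM in the lowest (BD1), 4.68 at the median and 7.73 in the highest (BD2). In virgins it was 4.18 FPKM in V2, 7.21 in V3, 0.859 in V4, 4.85 in V5 and 2.95 in V6. The means were 2.61 ± 1.17 FPKM (SD, n = 6) in bonded, 4.42 ± 2.69 (n = 6) in bond-disrupted and 4.01 ± 2.35 (n = 5) in virgin animals. No bonded animal was above 4 FPKM, while BD2, BD3, BD5, V2, V3 and V5 were, and the lowest animals of the other groups lay under the whole bonded range. The number of fragments was 46 to 440. The value in B1, 1.38 FPKM, rests on 1 of 2 about equally likely divisor lengths, and the other would give 2.75 FPKM. Other values of the measured genes, among them Upk1b in BD4 and Wt1 in V6, also had 2 candidate lengths. There the length nearer to that implied by the read rates was used, and the other was not tried.

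Wt1 was low in every lung. Its level was 0.394 FPKM in the lowest bonded animal (B5), 0.831 at the median and 1.15 in the highest (B4). In bond-disrupted animals it was 0.142 FPKM in the lowest (BD1), 0.898 at the median and 1.70 in the highest (BD5). In virgins it was 0.559 FPKM in V2, 1.18 in V3, 0.230 in V4, 0.825 in V5 and 0.759 in V6. The means were 0.774 ± 0.301 FPKM (SD, n = 6) in bonded, 0.90 ± 0.519 (n = 6) in bond-disrupted and 0.712 ± 0.351 (n = 5) in virgin animals. The groups overlapped, with the extremes of the whole series both among the bond-disrupted. These are 5 to 59 fragments per animal, so the counting error is large. Whether strand was used in counting is not given in the sources used here, and an antisense transcript of Wt1 could not be told apart from it without strand.

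Upk1b was of the same order. It was 0.180 FPKM in the lowest bonded animal (B1), 0.524 at the median and 0.808 in the highest (B6). In bond-disrupted animals it was 0.164 FPKM in the lowest (BD1), 0.736 at the median and 1.17 in the highest (BD2). In virgins it was 0.536 FPKM in V2, 1.19 in V3, 0.260 in V4, 0.594 in V5 and 0.754 in V6. The means were 0.549 ± 0.230 FPKM (SD, n = 6) in bonded, 0.664 ± 0.382 (n = 6) in bond-disrupted and 0.667 ± 0.343 (n = 5) in virgin animals. Again every group held low and high animals. The number of fragments was 12 to 109.

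**Figure D1:**
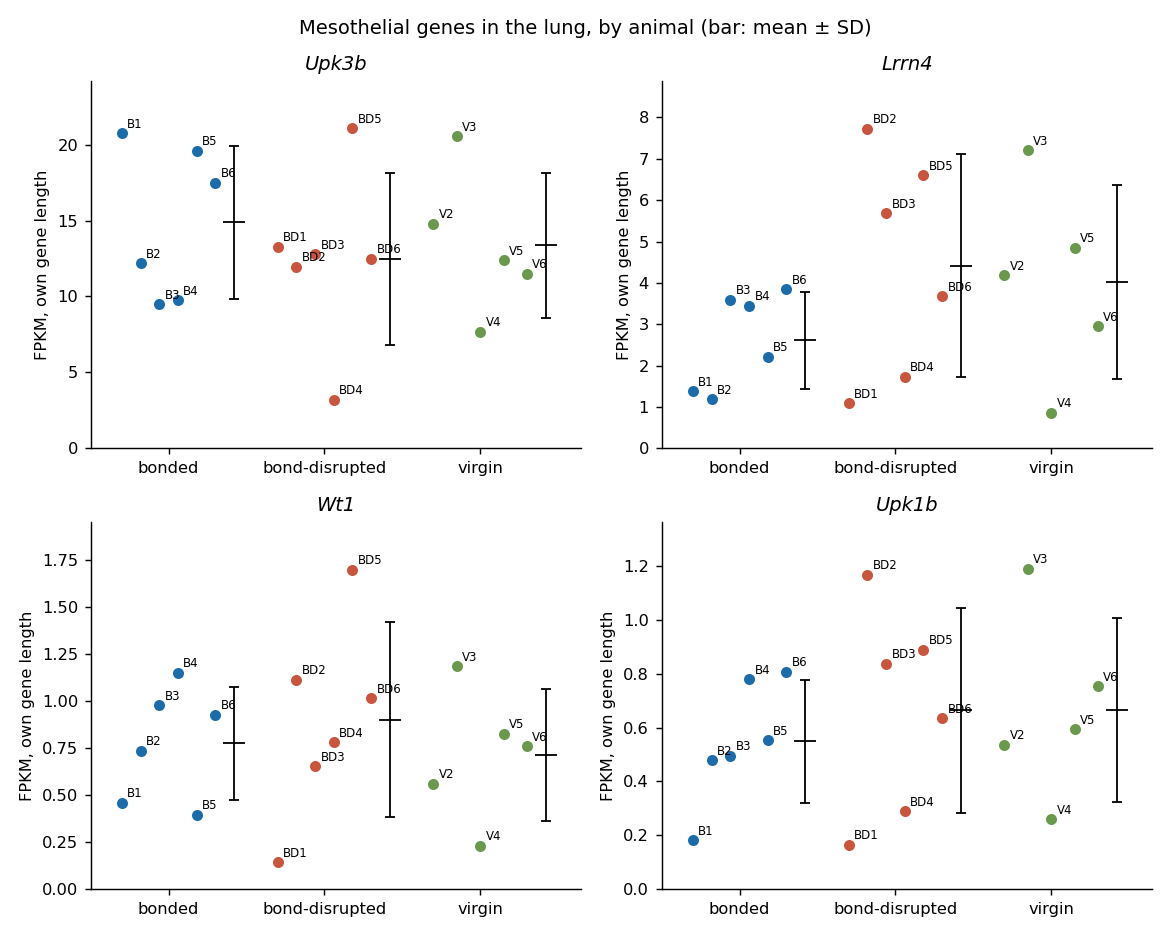
FPKM with the gene's own length (vertical axes, from 0) for each of the 17 animals by group, 1 panel per gene, with the group mean and SD as black bars. In each panel the 3 groups overlap, and BD1 and V4 lie near the bottom for Lrrn4, Wt1 and Upk1b while V3 and BD5 lie near the top for all 4 genes.

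Per kilobase, the order of the levels was Upk3b, then Lrrn4, then Wt1 and Upk1b. Upk3b was above Lrrn4 in 17 of 17 animals, by 2.06 ± 1.00 on the log2 scale of FPKM (mean ± SD). Lrrn4 was above Wt1 in 17 of 17, by 2.12 ± 0.66 log2. Wt1 was above Upk1b in 11 of 17 only, by 0.35 ± 0.58 log2, and whether these neighbours in the order differ was not tested. The gap between Upk3b and Lrrn4 was 3.91 log2 in B1 and 3.61 in BD1, and it was narrowest in BD2, at 0.63. With the other divisor length of Lrrn4 the gap in B1 was 2.91 log2, below that in BD1.

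The animals spread widely in all 4 genes. The SD of log2 FPKM over the 17 animals was 0.66 for Upk3b, 0.86 for Upk1b, 0.90 for Wt1 and 1.00 for Lrrn4, against a median of 0.24 over the 13719 tested genes above 0 in every animal. Genes of low level have larger SDs, so these genes were also split by mean log2 level into 10 classes of equal size, and each of the 4 was set beside the 1372 genes of its class. There the SD of Upk3b lay at percentile 97.8 and that of Lrrn4 at 96.7, while Upk1b lay at 65.2 and Wt1 at 68.1, in the lowest class, whose median SD was 0.68. Counting error alone gives SDs of 0.07, 0.23, 0.35 and 0.13 log2 at the fragments recovered, so it covers a small part of the spread for Upk3b and Lrrn4 and a larger one for Wt1. From the lowest to the highest animal, Upk3b spanned 6.60-fold, Upk1b 7.27-fold, Wt1 11.9-fold and Lrrn4 9.0-fold.

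Bond-disrupted animals were compared with bonded ones to ask whether losing the mate changes the lung. None of the 4 genes passed the test. The difference, on the log2(FPKM + 1) scale, was -0.32 ± 0.33 (SE) for Upk3b and 0.47 ± 0.39 for Lrrn4. It was 0.07 ± 0.18 for Wt1 and 0.08 ± 0.16 for Upk1b. The 95% intervals ran from -1.02 to 0.37 for Upk3b, from -0.35 to 1.30 for Lrrn4, from -0.32 to 0.45 for Wt1 and from -0.26 to 0.42 for Upk1b. With limma's moderated test over 14326 genes and Benjamini-Hochberg adjustment, the adjusted p was 0.898 for Upk3b, 0.876 for Lrrn4, 0.971 for Wt1 and 0.958 for Upk1b. The threshold was an adjusted p below 0.1 together with at least 2 times the level, and 0% of all tested genes were called. At an unadjusted p under 0.05, 0 of the 4 stood out, against 5.86% of all tested genes. Adding 1 FPKM compresses the scale of genes as low as Wt1 and Upk1b, and their SEs and intervals are narrower on it than by voom. On recovered fragments, limma's voom gave -0.04 ± 0.50 log2 for Wt1, with an interval from -1.10 to 1.01, so a level 2 times higher or lower lay within its bounds. It called 0 of the 4, and 0 of all 15488 genes it tested.

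Virgins were compared with bonded animals to ask what pairing itself changes. Again 0 of the 4 genes were called. The difference, on the log2(FPKM + 1) scale, was -0.14 ± 0.35 (SE) for Upk3b, 0.38 ± 0.41 for Lrrn4, -0.06 ± 0.19 for Wt1 and 0.10 ± 0.17 for Upk1b. The intervals ran from -0.87 to 0.59 for Upk3b, from -0.48 to 1.25 for Lrrn4, from -0.46 to 0.34 for Wt1 and from -0.26 to 0.45 for Upk1b. The limma adjusted p was 1 for each, 0% of all genes were called, and 3.75% had an unadjusted p under 0.05, with 0 of the 4 among them. This comparison shares its bonded animals with the one before, so the higher Lrrn4 mean of both other groups is not independent. Voom on fragments called 0 of the 4 and 0 of all genes it tested. It gave Lrrn4 0.41 ± 0.61 log2, Wt1 -0.23 ± 0.55 and Upk1b 0.25 ± 0.51. Its intervals ran from -1.39 to 0.92 for Wt1 and from -0.83 to 1.33 for Upk1b. A level 2 times lower for Wt1, or 2 times higher for Upk1b, lay within them.

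Virgins were also compared with bond-disrupted animals. On the log2(FPKM + 1) scale the difference was 0.01 ± 0.17 (SE) for Upk1b. Upk3b differed by 0.18 ± 0.35, Lrrn4 by -0.09 ± 0.41 and Wt1 by -0.13 ± 0.19. The intervals ran from -0.55 to 0.91 for Upk3b, from -0.95 to 0.78 for Lrrn4, from -0.53 to 0.28 for Wt1 and from -0.34 to 0.37 for Upk1b. The lowest limma adjusted p of the 4 was 0.952, for Wt1. Of all tested genes 0% were called, and 4.15% had an unadjusted p under 0.05, with 0 of the 4 among them. Voom called 0 of the 4 here as well, and 0 of all genes it tested. It gave 0.18 ± 0.49 log2 for Upk1b, -0.06 ± 0.56 for Lrrn4, -0.19 ± 0.54 for Wt1 and 0.27 ± 0.39 for Upk3b.

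**Figure D2:**
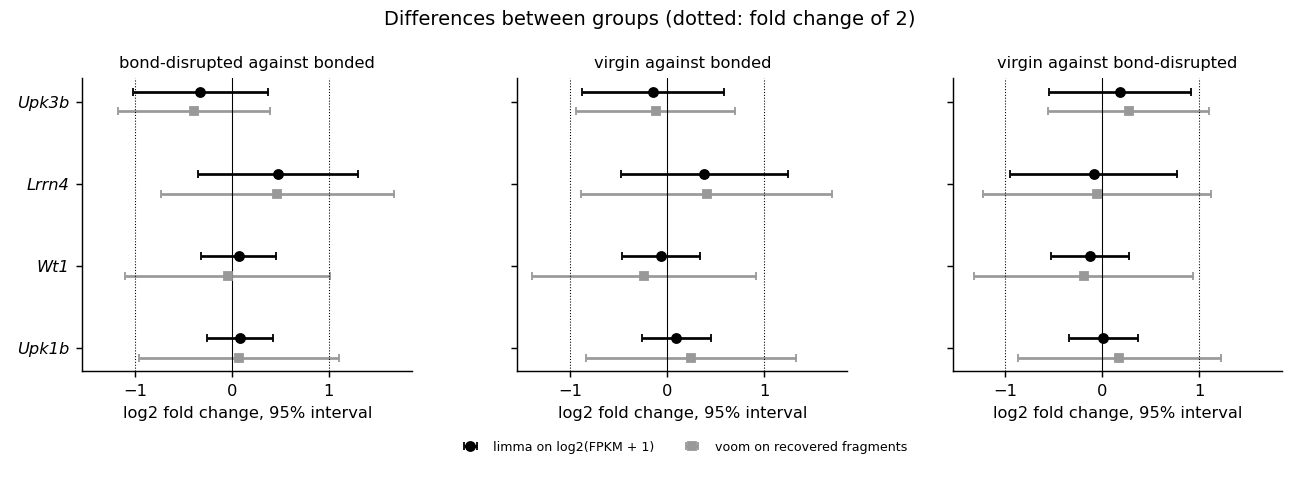
Log2 fold change of each gene in the 3 comparisons (horizontal axes) with 95% intervals, from limma on log2(FPKM + 1) (black) and from voom on recovered fragments (grey). Every interval spans 0, and several voom intervals reach past the dotted lines at a fold change of 2.

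While the groups did not separate these genes, the animals did. Upk1b, Wt1 and Lrrn4 were low or high in many of the same animals. BD1 ranked 1, 1 and 2 from the bottom of the 17 animals for Upk1b, Wt1 and Lrrn4, and V4 ranked 3, 2 and 1. At the other end, V3 ranked 17, 16 and 16 and BD5 ranked 15, 17 and 15. V3, BD5 and B6 were above the median of the series in all 4 genes, and V4 and B2 were below it in all 4.

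The relation was tested over the 6 pairs of measured genes, on log2(FPKM + 1) in 17 animals. Upk1b and Lrrn4 had r = 0.89 (permutation p = 1e-05, the smallest that 100000 permutations can give, adjusted p = 6e-05) and rho = 0.87 (permutation p = 5e-05, adjusted 0.0003). Wt1 and Lrrn4 had r = 0.75 (permutation p = 0.00048, adjusted 0.00108) and rho = 0.70 (permutation p = 0.00238, adjusted 0.00476). Upk1b and Wt1 had r = 0.75 (permutation p = 0.00054, adjusted 0.00108) and rho = 0.75 (permutation p = 0.00086, adjusted 0.00258). All 3 held without the 2 animals farthest from the median of the first gene. Upk1b and Lrrn4 then had r = 0.85 (permutation p = 6e-05) and Upk1b and Wt1 r = 0.66 (permutation p = 0.00726), without V3 and BD1. Wt1 and Lrrn4 had r = 0.68 (permutation p = 0.00557) without BD1 and BD5. The 3 pairs were also taken within groups. As deviations from the group means, the 3 pairs had r = 0.90, 0.79 and 0.77, with permutation p of 1e-05, 0.00021 and 0.00038. With the other divisor length for Lrrn4 in B1, r with Upk1b was 0.83 and r with Wt1 was 0.74.

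These permutations treat the 17 animals as exchangeable, although animals with the same number are relatives. Taken as deviations from the means of the 6 families and permuted within families (exact, 15552 arrangements), Upk1b and Lrrn4 had r = 0.82 (exact permutation p = 0.00649, adjusted 0.0390). Wt1 and Lrrn4 then had r = 0.68 (exact permutation p = 0.0242, adjusted 0.0662) and Upk1b and Wt1 r = 0.62 (exact permutation p = 0.0331, adjusted 0.0662). Within families, therefore, 1 of the 3 pairs had an adjusted p under 0.05. The pairs with Upk3b had r = 0.52 with Upk1b (exact permutation p = 0.115), 0.26 with Lrrn4 (exact permutation p = 0.382) and 0.18 with Wt1 (exact permutation p = 0.624). This check was added after the data were seen.

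The 3 pairs with Upk3b did not pass. Its r was 0.34 with Upk1b (permutation p = 0.184, adjusted 0.229, rho = 0.26 with permutation p = 0.318), 0.34 with Lrrn4 (permutation p = 0.190, adjusted 0.229, rho = 0.33 with permutation p = 0.203) and 0.12 with Wt1 (permutation p = 0.646, rho = 0.03 with permutation p = 0.922). Without BD4 and BD5 these r fell to 0.12, 0.16 and -0.003. As deviations from the group means they were 0.38 (permutation p = 0.129), 0.43 (permutation p = 0.0802) and 0.15 (permutation p = 0.560), and with the other divisor length in B1 the r with Lrrn4 was 0.42. The plot of the pairs shows B1, which was second highest in Upk3b and second lowest in Upk1b, and BD4, the lowest in Upk3b but ninth from the bottom in Wt1. Whether the correlations with Upk3b differ from the other 3 was not tested.

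These r were set beside those of the 14322 tested genes other than the 4. Of these, 0 correlated with Upk1b at least as strongly as Lrrn4 did, and 12 as strongly as Wt1 did. With Wt1, 3 reached the r of Lrrn4. With Upk3b, 7.74% reached the r of Upk1b and 31.6% that of Wt1. These counts and shares are descriptions, since genes are not independent replicates.

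**Figure D3:**
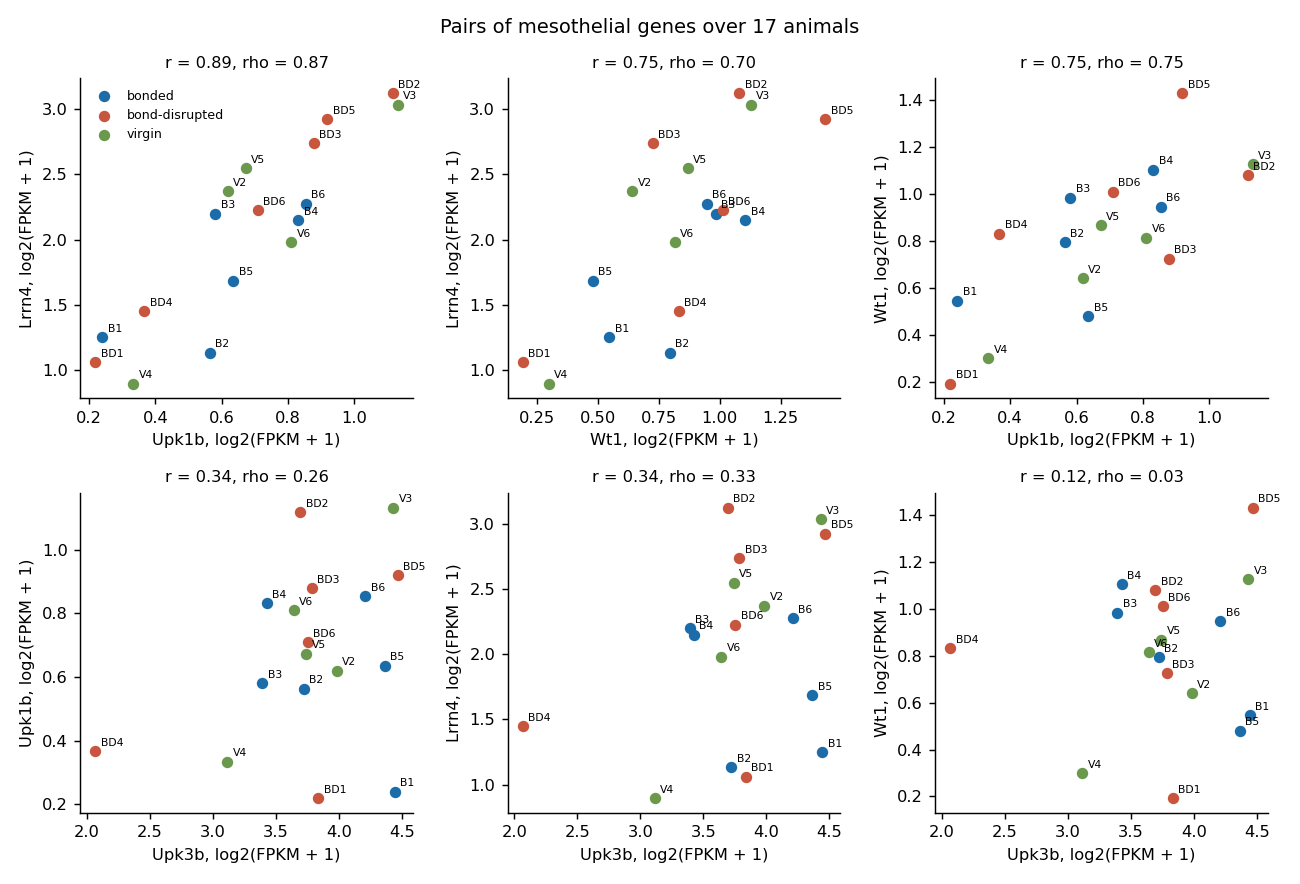
Scatter of log2(FPKM + 1) for the 6 pairs of measured mesothelial genes, 1 labelled point per animal, coloured by group. In the upper row Lrrn4, Wt1 and Upk1b rise together (r from 0.75 to 0.89) with the groups mixed along the line, and in the lower row the pairs with Upk3b scatter (r from 0.12 to 0.34).

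Other known genes of the mesothelium were read from a fixed list of 18. All 17 values were recovered for 13 of them, and 10 passed the filter of 1 FPKM in at least 1 animal. None was called by limma in any of the 3 comparisons, and 0 of the 10 had an unadjusted p under 0.05 in any. Voom tested 11 of the list and called 0. The median log2 difference of the 10 was 0.07 for bond-disrupted against bonded animals, -0.03 for virgin against bonded and -0.12 for virgin against bond-disrupted. Over all tested genes those medians were 0.01, 0.01 and 0.00.

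The levels of the 10 ranged widely. Efemp1, which encodes an extracellular matrix fibulin, was highest, at 65.4 to 147 FPKM. Podxl, a sialomucin also made by endothelium, was at 37.4 to 77.1 FPKM, and Ptgis, the prostacyclin synthase, at 29.6 to 71.4. Aldh1a2, which makes retinoic acid, was at 13.6 to 51.1 FPKM and Nkain4, a partner of the sodium pump, at 10.8 to 27.6. Dmkn, a secreted epithelial protein, was at 5.03 to 21.6 FPKM, Rspo1, a secreted enhancer of Wnt signalling, at 2.03 to 7.21, and the sulfatase Sulf1 at 1.70 to 52.2. Cldn15, a claudin of tight junctions, was at 0.446 to 2.75 FPKM and the transmembrane protein Pkhd1l1 at 0.273 to 1.64. The other 3 stayed under 1 FPKM in every animal. Bnc1, a zinc finger factor, reached 0.867 FPKM and Calb2, the calcium-binding calretinin, 0.637. Slurp1 was at 0 in all 17 libraries.

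Of these 10 genes, 4 correlated with the mean of the 4 measured genes above the 95th percentile of all other tested genes. The profile was summarised as the mean of the 4 measured genes, each standardised on log2(FPKM + 1). Pkhd1l1 correlated with this mean at r = 0.90 over the 17 animals, Cldn15 at 0.81, Aldh1a2 at 0.66 and Rspo1 at 0.63. That percentile was r = 0.40, and the median of the 10 was 0.31 against -0.02 over all. As deviations from the group means, Pkhd1l1 was again at 0.90, Cldn15 at 0.83, Aldh1a2 at 0.71 and Rspo1 at 0.64. Without that step, Podxl was at 0.35, Sulf1 at 0.28, Efemp1 at 0.27 and Ptgis at 0.13. Nkain4 was at -0.04 and Dmkn at -0.01, near the median of all genes. In BD1, the levels of Aldh1a2, Cldn15 and Pkhd1l1 were the lowest of the series, as were those of Wt1 and Upk1b. In BD2, Rspo1, Cldn15 and Pkhd1l1 were the highest of the series, as was Lrrn4.

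**Figure D4:**
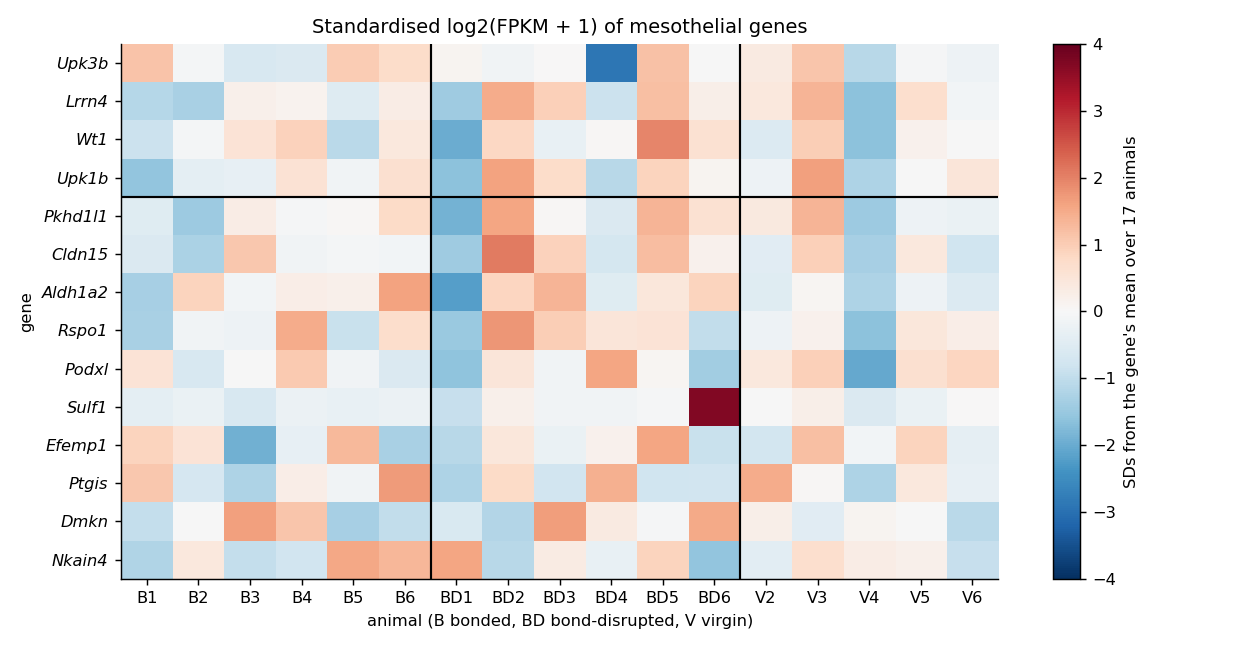
Log2(FPKM + 1) of the 4 measured genes (above the line) and of the 10 other mesothelial genes (below, in order of their r with the mean of the 4), in SDs from each gene's mean over the 17 animals, with the groups divided by vertical lines. BD1 and V4 are blue and BD2 and V3 mostly red from Lrrn4 down to Rspo1, while the rows of Dmkn and Nkain4 do not follow.

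The 10 genes whose profile was most like that mean, out of 14322 other tested genes, were listed with r as the measure of likeness over 17 animals. Pkhd1l1 was the first and Cldn15 the third, and these were the only 2 of the 10 in the list of mesothelial genes. Cpa4, a carboxypeptidase, was the fifth with r = 0.77, at 1.03 to 7.96 FPKM. Tmem151a, a transmembrane protein, had r = 0.76, at 0.408 to 1.54 FPKM. Il20rb, a subunit of interleukin 20 family receptors, had r = 0.76, at 1.60 to 15.5 FPKM. Angptl1, a secreted angiopoietin-like protein, had r = 0.75, at 0.658 to 1.90 FPKM. The other 4 carry only locus numbers. LOC128108045, protein-coding, had r = 0.87 and was the second, and LOC128122420, a long non-coding RNA, had r = 0.80. The choice of these 10 by their r makes the values a description.

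**Figure D5:**
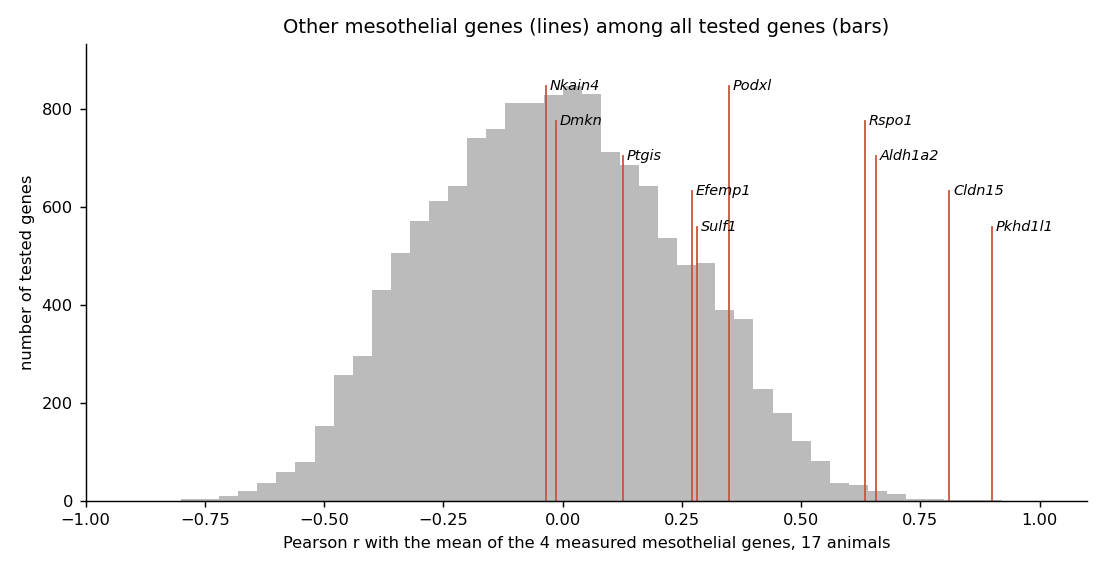
Pearson r over 17 animals between each tested gene and the mean of the 4 measured mesothelial genes (horizontal axis) as a histogram of 14322 genes (grey), with the 10 other mesothelial genes as lines. Pkhd1l1, Cldn15, Aldh1a2 and Rspo1 lie in the right tail, above 0.6, and Nkain4 and Dmkn in the middle, near 0.

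Uroplakins are best known from the plaques of the bladder surface. Of the 6 in the family list, 5 were measured, Upk3bl1 was not analysed here, and 3 passed the filter, with 0 called by limma in any comparison and 0 at an unadjusted p under 0.05. Upk2 was at 0.211 to 5.10 FPKM, with r = 0.05 to the mean of the mesothelial genes. Upk1a stayed at 0.0557 to 0.675 FPKM and Upk3a at 0.148 to 0.656. Voom tested all 5 and called 0. It gave Upk1a an unadjusted p under 0.05 in both comparisons with virgins, with means of 0.377 ± 0.151 FPKM (SD, n = 6) in bonded, 0.367 ± 0.168 (n = 6) in bond-disrupted and 0.190 ± 0.0888 (n = 5) in virgin animals. Such a p was had by 3.63% of all genes tested by voom for virgin against bonded and by 4.44% for virgin against bond-disrupted animals, and both comparisons share the virgins, so 1 of 5 is no result about the family. Fragments from close relatives of Upk3b may have been shared with it, since some fragments were divided between genes in counting.

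Transcription factors and partners known from Wt1-expressing tissue formed a list of 10, of which 7 passed the filter. In each comparison limma called 0 and 0 had an unadjusted p under 0.05, and voom called 0 of the 10. Bnc2, a relative of Bnc1, followed the mesothelial mean with r = 0.64, at 0.699 to 1.31 FPKM, and Aldh1a2 is in this list too. Tcf21, a factor of lung fibroblasts, was at 97.5 to 223 FPKM with r = -0.002. Gata6 was at 21.6 to 31.4 FPKM with r = 0.18, Tead1 at 17.4 to 31.7 with r = 0.16, and the retinoic acid receptor Rara at 18.0 to 26.9 with r = 0.11. Tbx20, a cardiac factor, was at 0 to 2.62 FPKM with r = 0.19. Tbx18 and Gata4 stayed under 1 FPKM in every animal.

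Markers of other cells were read beside the mesothelial mean, by the summed FPKM of each list. The r over 17 animals was 0.26 for 6 fibroblast genes, 0.13 for 5 endothelial genes, 0.11 for 4 genes of the adventitia and -0.02 for 5 of smooth muscle. It was 0.03 for 6 type 2 alveolar genes and -0.13 for 5 of type 1. Without the animal highest in the list, r was 0.15 for fibroblast (without BD2), -0.00009 for adventitia (without BD2) and 0.08 for type 1 genes (without BD1). It was -0.11 for smooth muscle (without B6). For the 1 club cell gene measured r was -0.25 and for 4 ciliated cell genes -0.24 (-0.04 without V4). For 4 genes of the thymus list r was -0.25 (-0.495 without V3). Of these, Ptcra, Foxn1 and Dntt stayed under 1 FPKM in every animal, unlike Cd8b. For 3 B cell genes r was -0.46 (-0.37 without BD4), with 19.6 to 78.9 FPKM in bonded, 15.3 to 97.8 in bond-disrupted and 36.5 to 83.5 in virgin animals, and their part in the result was not tested. Cardiac muscle genes, active in heart and in the walls of pulmonary veins, summed to 50.8 to 464 FPKM with r = -0.06 (-0.16 without B6). None of the 6 was under 1 FPKM throughout. The fat genes Plin1, Lep and Cidec stayed under 1 FPKM in every animal, and the fat list's sum of 72.9 to 129 FPKM, with r = -0.12, was nearly all Cfd, at 72.2 to 129 FPKM. Library depth had r = -0.04. Without B6, the animal highest in cardiac muscle genes, 0 of the 4 mesothelial genes were called in any comparison.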

How the data were processed

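Lung RNA of 17 animals was sequenced, in groups taken from the sample labels. The authors made directional libraries and deposited FPKM for 27786 genes, whose names match RefSeq symbols of assembly ASM782708v3. The submitters' processing notes name Trim Galore 0.4.5, STAR 2.7.2, SAMtools 1.5 and featureCounts of Subread 1.5.3. The genome build and annotation are not given in the sources used here, so no coordinates are printed.

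Depths and divisor lengths were solved so that the values became whole, allowing divided fragments, with small RNA genes of known RefSeq length setting the depths (97.5% to 99.2% of their values were within 0.03 of whole). Of the low whole values, 81.2% to 83.5% per animal were even, so 2 units were taken as 1 fragment. All values were recovered for 24714 genes, and the 14326 with at least 1 FPKM in 1 animal were tested on log2(FPKM + 1) with limma 3.58.1 (R 4.3.3). The fit held the 3 groups, without covariates, and was two-sided. Adjustment was by Benjamini-Hochberg over all genes. Correlations used 100000 two-sided permutations (Python 3.11.15, numpy 2.4.6) and adjustment over the 6 pairs, where 10 had been planned with Msln. The SDs measure the spread between animals, and the animals are the replicates behind the p-values.

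Members, lists and tests were chosen with earlier results of these data known. The genes named are the members, the genes of the lists and the 10 most like the members' mean. The recovery of lengths and the limma fit were tested on simulated data, and voom and the permutations were not. Animals with the same number are relatives according to the study, and the limma fit above holds no family term. Over the 1000 most variable genes, 6 of the 16 pairs with the same number correlated above 0.1, with a mean r of 0.087 against -0.017 for other pairs. They were 4 of the 6 bonded and bond-disrupted pairs (r from 0.081 to 0.44) and 2 of the 10 pairs with a virgin (r from -0.22 to 0.15). The share of other pairs above 0.1 is not given here, so these counts are descriptions. Alternatives were the FPKM as deposited, other pseudocounts, filters and scalings, voom on genes with a mean of at least 10 fragments, the family number as a block, and leaving out each animal.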

Additional observations from a re-analysis of the deposited data

How the results depend on the processing

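In each comparison, 0 of the mesothelial genes tested were called under the 32 other settings (limma throughout). Of these, leaving out the animal highest in cardiac muscle is the same fit as leaving out B6. All 4 genes were tested except under a filter on a mean of 1 FPKM (Upk3b and Lrrn4 only). The smallest limma adjusted p of any of the 4 was 0.649. Of all tested genes, the FPKM as deposited called 40 for bond-disrupted against bonded, 113 for virgin against bonded and 35 for virgin against bond-disrupted animals, against 0 in each with own lengths. The direction of uncalled differences turned in 8 of the 102 cases whose value moved at all, and 51 others kept the value, most of them under another filter, a variance trend or a fit of the 2 groups alone, which do not enter it. As deposited, Lrrn4 was at -0.26 log2 for bond-disrupted against bonded, -0.13 for virgin against bonded and 0.13 for virgin against bond-disrupted animals, Wt1 at 0.58 for virgin against bonded and Upk3b at -0.12 for virgin against bond-disrupted animals. Upk1b, virgin against bond-disrupted, was at -0.003 in a fit of gene, animal and divisor terms. Wt1 was at -0.044 by voom for bond-disrupted against bonded animals. With the family number as a replicate block, 0 of the 4 were called in each comparison, and Upk1b turned to -0.074 for virgin against bond-disrupted animals. The block changed no limma call of the 4.

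Leaving out each animal in turn, the count stayed at 0 and a direction turned 13 times. For bond-disrupted against bonded, Wt1 ranged from -0.041 to 0.207, Upk1b from 0.001 (without BD2) to 0.180, Lrrn4 from 0.298 to 0.712 (without BD1) and Upk3b from -0.498 to -0.019 (without BD4). For virgin against bonded, Upk3b ranged from -0.305 to 0.024, Upk1b from -0.009 to 0.191, Wt1 from -0.154 to 0.053 and Lrrn4 from 0.167 (without V3) to 0.703 (without V4). For virgin against bond-disrupted, Upk3b ranged from -0.12 to 0.36, Upk1b from -0.092 to 0.107, Wt1 from -0.266 (without BD1) to -0.016 (without V4) and Lrrn4 from -0.33 to 0.23. The mean r of the 6 pairs was 0.53, 0.47 to 0.59 when each animal was left out, 0.51 as deviations from family means, and 0.085 in the FPKM as deposited, where each value carries another gene's length. The alternatives on B1's length, on cardiac muscle and on deviations from family means were chosen after seeing the data. The 5 to 59 fragments of Wt1 limit what these libraries can show of it.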

Other observations

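A few genes of the lists were high in 1 animal, and these were picked after their values were seen. Sulf1, an extracellular sulfatase, was at 52.2 FPKM in BD6 and at most 4.69 in the other animals. In BD6 the skeletal muscle actin Acta1 was at 21.4 FPKM, against at most 1.14 elsewhere, while the other skeletal muscle genes measured were not highest there, with Ckm at 1.06 FPKM and Myh4 and Tnnt3 under 1 FPKM in every animal. Il20rb was at 15.5 FPKM in BD2, the animal highest in Lrrn4, and at most 5.11 elsewhere. Upk2, a uroplakin of the bladder, was at 5.10 FPKM in B6, against at most 2.26 elsewhere, and B6 was also highest in cardiac muscle genes, at 464 FPKM.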
